A study of Mus musculus with 4 samples.

Results

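In the blood of mice given cadmium, 6 microRNAs (miRNAs) stood higher than in control blood: miR-326, miR-324, miR-331, miR-345, miR-700 and miR-664. They were taken by name from the per-library lists, as mmu-mir-326, mmu-mir-324, mmu-mir-331, mmu-mir-345, mmu-mir-700 and mmu-mir-664, and all 6 were found among the 374 annotated loci of the lists. They had been selected on their scaled read counts, which were higher in both cadmium libraries than in both controls. The cadmium difference itself is therefore a description of the choice and carries no test.

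Whole-blood small RNA came from Balb/c mice aged 180 days, with 2 libraries from control mice and 2 from mice that drank water mixed with cadmium, a toxic heavy metal. All animals were otherwise kept under normal conditions with free access to feed and water. The sources used here give neither the cadmium dose nor how long the mice drank it. Whether a group's libraries stand for separate animals, pools or repeats is not labelled, so the spread between them may be technical.

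A miRNA is a short RNA cut from a hairpin precursor and loaded into an Argonaute protein. It pairs with messenger RNAs mainly through its seed, bases 2 to 8 from its 5′ end, and lowers the output of the messages it pairs with. Many miRNA hairpins lie inside the introns or exons of host genes and are cut from the host's primary transcript. Blood miRNAs come from red cells, white cells and platelets, with a small cell-free part.

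The counted sequences show which hairpin arm each miRNA stands for and whether any of the miRNAs share a seed. They are given as the deposited lists have them, as DNA letters 5′ to 3′ with the seed in capitals.
miR-326 (3p arm): cCTCTGGGcccttcctccag
miR-324 (5p arm): cGCATCCCctagggcattggtg
miR-331 (3p arm): gCCCCTGGgcctatcctagaa
miR-345 (5p arm): tGCTGACCcctagtccagtgc
miR-700 (5p arm): tAAGGCTCcttcctgtgcttgca
miR-664 (3p arm): tATTCATTtactccccagcc
No seed was shared among them. Each counted window had the same start and end in all 4 libraries, so no change of arm or of window enters the counts below. No other annotated or predicted locus listed in control 1, cadmium 1 or cadmium 2 had a sequence that contains, or is contained in, one of these, and the sequences of control 2 were not used.

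The windows were set against the mature forms of RefSeq (build GRCm38.p6), which had all 6. That of miR-331 matched RefSeq at both ends. The windows of miR-326 and miR-324 ended 1 base earlier than the RefSeq form, that of miR-664 ended 2 bases earlier and that of miR-700 ran 1 base further. For miR-345 the window began 1 base before the RefSeq form and ended 2 bases before its end. Because the seed is read from the first base, this shift gives another seed.
miR-345, counted window: tGCTGACCcctagtccagtgc
miR-345, RefSeq mature form: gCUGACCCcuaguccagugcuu
The RefSeq table held 0 mature forms with the seed of the counted window and 1, miR-345-5p itself, with the seed of the RefSeq form. The lists give 1 window per locus, so the share of miR-345 reads that start at either base is not known.

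The counted part of the hairpin, in capitals, is shown for miR-326 and miR-345, whose windows are intronic, and for miR-664, whose window lies within a small nucleolar RNA (RefSeq, GRCm38.p6, RNA letters).
miR-326 hairpin: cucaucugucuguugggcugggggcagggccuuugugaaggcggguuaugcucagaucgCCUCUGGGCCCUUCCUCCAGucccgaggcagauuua
miR-345 hairpin: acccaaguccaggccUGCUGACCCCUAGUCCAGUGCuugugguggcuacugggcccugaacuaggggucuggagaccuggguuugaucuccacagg
miR-664 hairpin: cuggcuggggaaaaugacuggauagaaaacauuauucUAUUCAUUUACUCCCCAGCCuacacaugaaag
The window covers bases 60 to 79 of 95 in the miR-326 hairpin, bases 16 to 36 of 96 in that of miR-345, and bases 38 to 57 of 69 in that of miR-664. miR-326 and miR-664 were thus counted on the 3′ arm and miR-345 on the 5′ arm.

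Reads of annotated loci summed to between 14383852 and 35244119 per library, and the controls were the deeper pair. In these sums, and in the CPM, a sequence listed at several loci counts at each of them, which overstates the depth. Over the fitted loci control 1 held 35225058 reads, and 21365338 with 1 locus per sequence. Counts were scaled with the trimmed mean of M values (TMM) and are given as counts per 1000000 (CPM). The scaled library size over the 276 fitted loci was on average 1.62 times larger in controls than with cadmium. A read spans a whole mature miRNA, so CPM were not divided by length, and an order of levels between miRNAs is an order of reads. The 95% exact Poisson intervals on CPM cover counting error only.

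miR-326 is known for blocking Notch signalling and for promoting Th17 cells, a helper T cell type, through Ets-1. Controls 1 and 2 held 664 and 610 of its reads, and cadmium 1 and cadmium 2 held 1905 and 1731. These are 21.1, 27.2, 118 and 102 CPM. The lowest cadmium library was 3.75 times the highest control, the widest such gap of the 276 fitted loci. The control mean was 24.2 ± 4.29 CPM and the cadmium mean 110 ± 11.2 CPM (SD, n = 2 in either group), a 4.55-fold difference and a log2 fold change of 2.18 ± 0.24 (edgeR, SE).

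miR-324, whose 5p form is known to act against Hedgehog signalling, was read 320 and 307 times in the controls against 579 and 623 times in the cadmium libraries. Its levels were 10.2 and 13.7 CPM in controls and 35.8 and 36.7 CPM with cadmium. Its controls lay 1.34-fold apart, the most of the 6, while its cadmium libraries lay 1.02-fold apart. The difference between the groups was 3.04-fold (log2 1.60 ± 0.24, SE).

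miR-331, studied in tumour cells as a repressor of the growth factor receptor gene ERBB2, was the most abundant of the 6 in the controls. It had 1313 and 1008 reads in controls and 1800 and 1950 with cadmium, or 41.8, 44.9, 111 and 115 CPM. Both pairs were tight, and the groups stood 2.61-fold apart (log2 1.38 ± 0.21, SE).

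miR-345 had 828 and 596 reads in controls and 969 and 956 with cadmium. Scaled, its controls were nearly equal at 26.3 and 26.6 CPM, and its cadmium libraries stood at 59.9 and 56.3 CPM. It had the smallest difference of the 6, 2.19-fold (log2 1.13 ± 0.21, SE), and also the smallest gap, 2.12 times from the highest control to the lowest cadmium library.

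miR-700 had 346 and 316 reads in controls and 545 and 528 with cadmium, which are 11, 14.1, 33.7 and 31.1 CPM (2.58-fold, log2 1.37 ± 0.24, SE). miR-664 was the least abundant, with 155 and 110 reads in controls and 184 and 223 with cadmium. Its controls were both at 4.9 CPM (4.93 and 4.90), and the cadmium libraries were at 11.4 and 13.1 CPM (2.49-fold, log2 1.32 ± 0.22, SE). The counting interval of miR-664 ran from 4.03 to 5.91 CPM in control 2, the wider of the controls, and from 9.79 to 13.1 CPM in cadmium 1. In all 6 miRNAs the lower end of every cadmium interval lay above the upper end of every control interval, by 1.66 times in miR-664 and 3.30 times in miR-326. The 6 were picked for this direction, so this is a description, and it was not counted over all fitted loci. The intervals leave out the spread between libraries, which over all fitted loci together was far above sampling noise. Among the 6 that spread varied. The intervals of the controls did not meet in miR-326 (up to 22.8 and from 25.1 CPM). In miR-345 they overlapped (24.6 to 28.2 and 24.5 to 28.8 CPM).

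**Figure D1:**
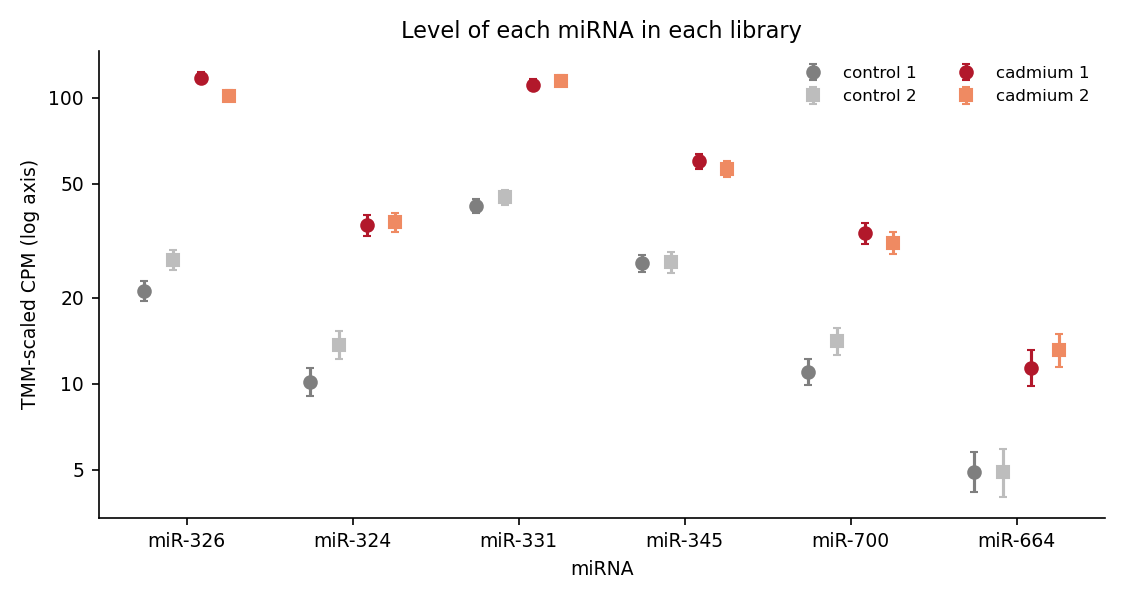
TMM-scaled CPM (log axis) of the 6 miRNAs in each of the 4 libraries, with 95% exact Poisson intervals for counting error. For each miRNA both cadmium libraries lie above both controls, from 4.93 and 4.90 against 11.4 and 13.1 CPM in miR-664 to 21.1 and 27.2 against 118 and 102 CPM in miR-326.

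The order of levels was not the same in the groups. In controls miR-331 (43.4 ± 2.23 CPM) came first and was clear of the rest. miR-345 (26.5 ± 0.156) and miR-326 (24.2 ± 4.29) overlapped, as did miR-700 (12.5 ± 2.18) and miR-324 (11.9 ± 2.48), and miR-664 (4.92 ± 0.0204) was last. With cadmium miR-331 (113 ± 2.45 CPM) and miR-326 (110 ± 11.2) overlapped at the top, followed by miR-345 (58.1 ± 2.58), by miR-324 (36.2 ± 0.612) and miR-700 (32.4 ± 1.85), and by miR-664 (12.2 ± 1.24). The libraries of miR-324 and miR-700 did not overlap, but their counting intervals did in cadmium 1 (32.9 to 38.8 and 30.9 to 36.6 CPM).

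Shares within the 6 show the same without any scaling, since they are taken inside each library. The 6 miRNAs summed to 3626 and 2947 reads in the controls against 5982 and 6011 with cadmium. That was 0.0103%, 0.0120%, 0.0416% and 0.0386% of the fitted counts, in which a repeated sequence counts at each of its loci. Of the reads of the 6, miR-326 made up 18.3% and 20.7% in controls and 31.8% and 28.8% with cadmium. Its nearest 95% Wilson intervals, up to 22.2% in control 2 and from 27.7% in cadmium 2, did not meet. Wilson intervals here and below cover counting error within a library only, not the spread between libraries. miR-345 held 22.8% and 20.2% in controls and 16.2% and 15.9% with cadmium, and its intervals did not meet either. miR-324 kept overlapping shares of 8.83% and 10.4% in controls and 9.68% and 10.4% with cadmium.

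A direction of this kind was common among the fitted loci. Of the 276, 39.5% (109 loci) had both cadmium libraries above both controls after TMM scaling, and 84 had both below. The split depended on scaling, at 87 above and 90 below with DESeq2 size factors, 131 and 48 with totals without dominant loci, 148 and 31 with total counts, and 142 and 34 under upper-quartile scaling. The median log2 fold change was 1.38 over the 6 miRNAs and 0.08 over all fitted loci. Among the 47 other loci with a mean CPM in the range of the 6, from 8.58 to 78.2 CPM, 20 stood higher and 9 lower, with a median log2 fold change of 0.18. Next to the dividing line, miR-361 lay just inside (61.7 and 44.4 CPM in controls, 65.1 and 61.7 with cadmium, a gap of 1.001 times). The 2 copies of miR-450a, which carry the same reads, lay just outside with a gap of 0.992 times. The 6 miRNAs lay further from that line, at 2.12 to 3.75 times, but they had been picked for this direction. By this gap they ranked 1, 5, 6, 7, 8 and 10 of the 276, and miR-18a ranked 2 at 3.47 times.

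Unscaled reads were higher with cadmium as well, although the cadmium libraries were the shallower ones. For all 6, the raw count of each cadmium library exceeded that of each control, by a factor of 1.15 for miR-345 up to 2.61 for miR-326 from the highest control to the lowest cadmium count. Over all fitted loci this held for 6.16% (17 of 276), among them these 6. None of the 47 other loci of like abundance was in that group, but the bounds of that range are those of the 6. Outside it, miR-106a (mean 5.85 CPM), miR-500 (7.56), miR-24 (105) and miR-652 (127) were in the group. This comparison was added after the data were seen, and since the 6 were picked for the same contrast it supports nothing about them.

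**Figure D2:**
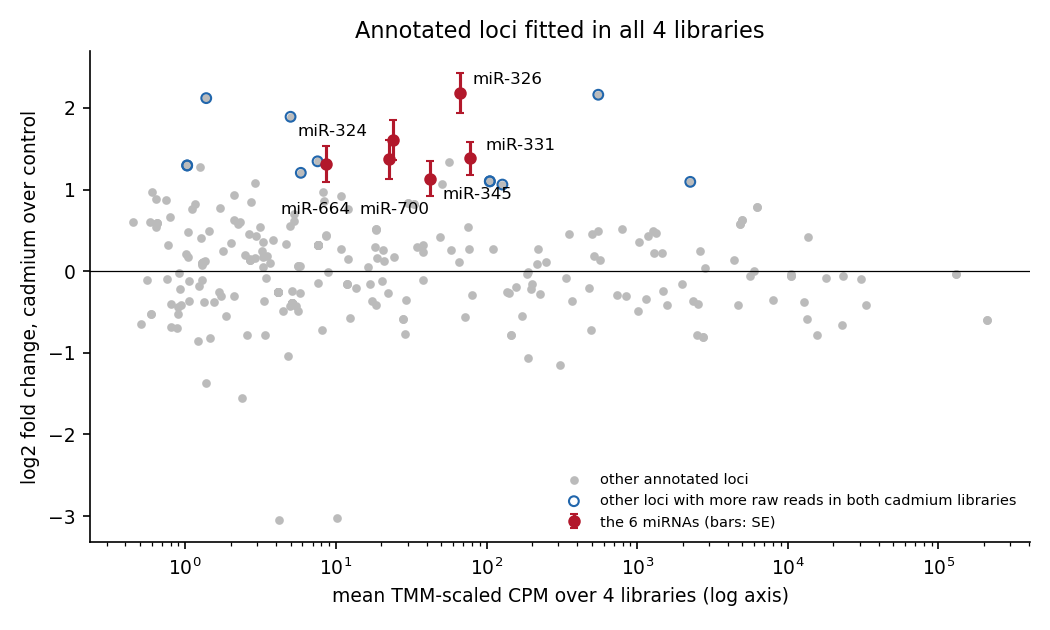
Log2 fold change of cadmium over control against mean TMM-scaled CPM (log axis) for the 276 fitted loci, with the 6 miRNAs in red (bars: SE) and blue rings on the other 11 loci that had more raw reads in both cadmium libraries. The 6 lie at 1.13 to 2.18 on the vertical axis, while the median of all loci is 0.08.

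Reads of each miRNA were also set against abundant miRNAs of the same library, which needs no scaling factor. The references were miR-16-1, miR-22 and miR-92a-1, all abundant in red cells, miR-142, found across white cells, and miR-21a. They were chosen knowing that they stood close to their control level, and their log2 fold changes here were -0.10 to -0.03. Per 1000 reads of miR-16-1, miR-326 had 0.161 and 0.203 reads in controls and 0.921 and 0.779 with cadmium. On the same scale miR-331 had 0.318 and 0.335 in controls and 0.870 and 0.877 with cadmium. miR-664 had 0.0375 and 0.0366 in controls against 0.0890 and 0.10 with cadmium. Against the white-cell reference, per 1000 reads of miR-142, miR-326 had 3.54 and 4.94 reads in controls and 19.9 and 20.1 with cadmium.

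All 30 ratios, 6 miRNAs by 5 references, were higher in both cadmium libraries than in both controls. With the 6 picked as raised and the references as steady, this follows from the choices and supports nothing further. The ratios were not counted over all fitted loci, of which 39.5% (109 of 276) stood higher after TMM scaling. Over the references the ratio of miR-326 was 4.66-fold to 4.89-fold higher with cadmium, and that of miR-324 was 3.13-fold to 3.28-fold higher. The ratios of miR-331, miR-700 and miR-664 were 2.54-fold to 2.79-fold higher, and those of miR-345 2.24-fold to 2.35-fold. The narrowest gap was that of miR-345 to miR-92a-1, with 0.971 and 1.31 reads per 1000 in controls and 2.55 and 2.53 with cadmium. miR-92a-1 itself differed between the controls (27139 and 20322 CPM), which widens the control spread of its ratios.

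**Figure D3:**
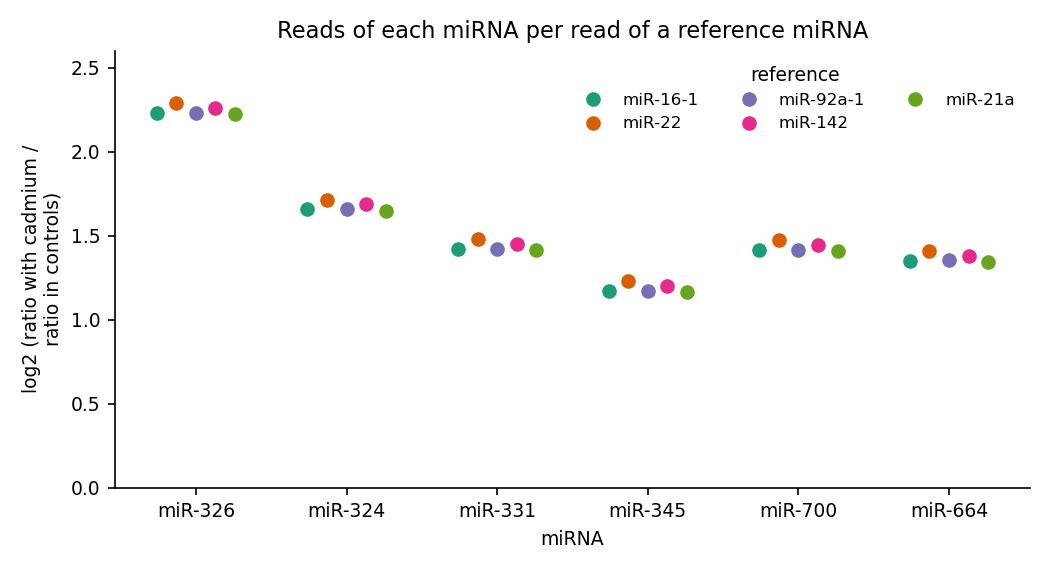
Log2 of the ratio with cadmium over the ratio in controls (means of the log2 ratios of 2 libraries each), where each ratio is reads of the named miRNA per read of 1 of 5 reference miRNAs in the same library. The 5 points of each miRNA lie close together, between 2.22 and 2.29 for miR-326 and between 1.16 and 1.23 for miR-345.

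Among annotated loci with a usable sequence, miR-326 alone of the 6 shared its seed with another. That locus was miR-330, counted as its 5p arm (chromosome 7, 19181486 to 19181507, plus strand, mm10) in an exon of Eml2. The sequences are set side by side because they differ outside the seed.
miR-326: cCTCTGGGcccttcctccag
miR-330: tCTCTGGGcctgtgtcttaggc
miR-330 had 1057 and 810 reads in controls and 652 and 705 with cadmium, or 33.6, 36.1, 40.3 and 41.5 CPM. Its log2 fold change was 0.23 ± 0.21 (SE). Of the reads of the pair, miR-326 held 38.6% (95% Wilson interval 36.3% to 40.9%) and 43.0% (40.4% to 45.5%) in controls. It held 74.5% (72.8% to 76.2%) and 71.1% (69.2% to 72.8%) with cadmium. miR-330 was thus the more counted form of this seed in both controls, and miR-326 in both cadmium libraries. With miR-326 picked as raised and miR-330 differing little, the direction of this shift follows from the choice and is a description. Together they stood at 54.8 and 63.3 CPM in controls and at 158 and 143 CPM with cadmium.

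**Figure D4:**
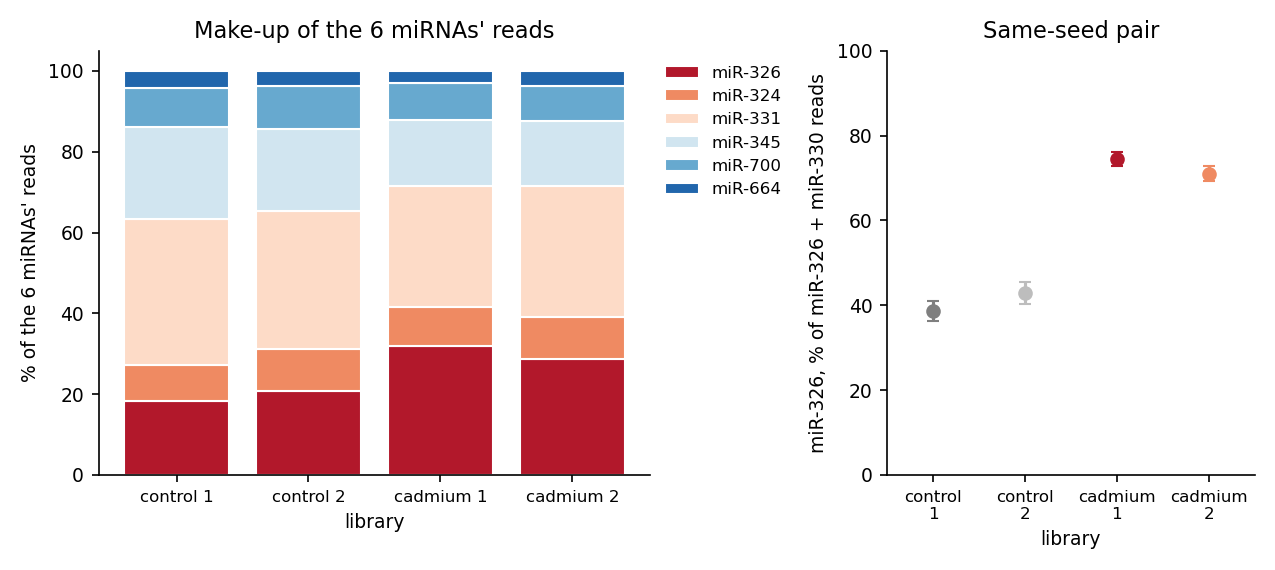
Left, each miRNA's percentage of the 6 miRNAs' reads in each library. Right, the reads of miR-326 as a percentage of the reads of miR-326 and its seed mate miR-330, with 95% Wilson intervals for counting error. miR-326 has 18.3% and 20.7% in controls and 31.8% and 28.8% with cadmium on the left, and 38.6% and 43.0% against 74.5% and 71.1% on the right.

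Each of the 6 lay in a protein-coding gene on the same strand, in the GENCODE M21 annotation of the mm10 build that the lists use. Of the 277 loci that every library lists on 1 arm, 63.9% did. The 6 were on 6 different chromosomes, and no other listed annotated locus lay within 10 kb of any of them. No predicted locus of any library lay inside their host genes.

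miR-326 (chromosome 7, 99552328 to 99552347, plus strand) was in an intron of all 5 transcripts of Arrb1 that span it, the gene of beta-arrestin 1. miR-345 (chromosome 12, 108836988 to 108837008, plus strand) was in an intron near the start of Slc25a47, a mitochondrial carrier gene expressed mainly in liver. The end of its hairpin runs into an annotated exon of that gene. miR-700 (chromosome 4, 135416600 to 135416622, minus strand) was in an intron of Rcan3, of the family that regulates the phosphatase calcineurin. Its window ends right beside an annotated Rcan3 exon, into which the annotated hairpin runs.

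The windows of the other 3 overlapped annotated exons. miR-324 (chromosome 11, 70012060 to 70012081, plus strand) was in the 3′ untranslated region (UTR) of Dvl2, a Wnt pathway gene, in both Dvl2 transcripts that span it. It also lay across an intron of Acadvl, a fatty acid oxidation gene, on the opposite strand. miR-331 (chromosome 10, 93963783 to 93963803, minus strand) was in the 3′ UTR of 1 of 2 spanning transcripts of the cell junction gene Vezt and in an intron of the other. miR-664 (chromosome 1, 185243012 to 185243031, plus strand) was in an intron of Rab3gap2, and its window was inside the small nucleolar RNA gene Snora36b (185242907 to 185243038), which the hairpin's 3′ end runs past. The counted sequence of miR-664 is part of the Snora36b transcript, so reads cut from a mature miR-664 and fragments of that RNA cannot be told apart in these counts. Messenger RNA of the hosts was not measured here.

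**Figure D5:**
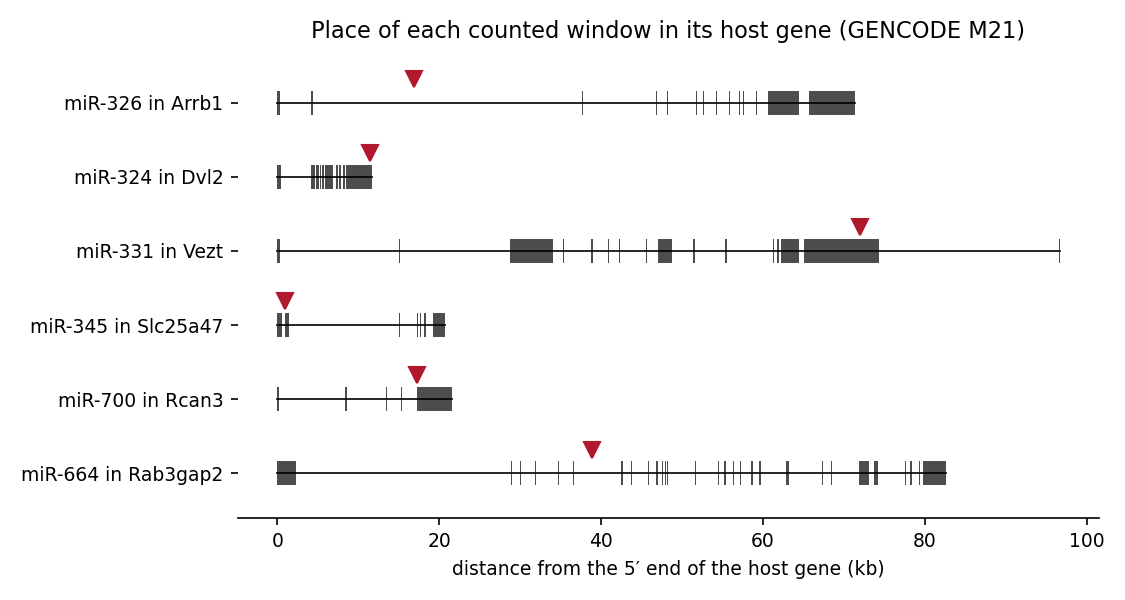
Place of the counted window (red triangle) in the host gene on the same strand, as distance in kb from the gene's 5′ end, with the exons of all its GENCODE M21 transcripts as grey boxes (drawn at least 0.08 kb wide). miR-326, miR-345 and miR-664 lie between exons of their hosts, miR-700 at the edge of an exon, and miR-324 and miR-331 on exons.

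The counted sequences were rich in G and C in 4 of the 6. The GC content was 70.0% in miR-326, 63.6% in miR-324 and 61.9% in both miR-331 and miR-345. It was 52.2% in miR-700 and 45.0% in miR-664, while the median of the 277 loci was 45.5% and their upper quartile 54.5%. The 25 other fitted loci with at least 60% GC had a median log2 fold change of -0.29, with 6 higher and 9 lower with cadmium, and 0 of them had more raw reads in both cadmium libraries. In the other loci the median was 0.09 at 50% to under 60% GC (29 of 77 higher, 21 lower), 0.18 at 40% to under 50% (57 of 112 higher, 29 lower) and -0.19 under 40% (11 of 56 higher, 25 lower). Of the 11 other loci with more raw reads in both cadmium libraries, 6 had 50% to under 60% GC. The part of GC content in the levels of the 6 miRNAs was not tested.

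The likeness of profiles over the 4 libraries was measured as the Euclidean distance between log2 CPM values, each centred on its own mean. It is dominated by the difference between the groups and is given as a description. Among the 6, miR-331 and miR-664 were the closest (0.156) and miR-326 and miR-345 the furthest apart (1.09). Of the 107 other sequences with a mean of at least 10 CPM, the closest to miR-326 was miR-18a (0.346), a miRNA of the miR-17-92 cluster known from dividing cells. It stood at 149 and 254 CPM in controls and at 882 and 921 CPM with cadmium. miR-24 (counted at miR-24-1) was the closest to miR-331 (0.284), miR-700 (0.322) and miR-664 (0.274), with miR-15b next to it for each. For miR-324 those 2 changed places, miR-15b at 0.543 and miR-24 at 0.545. miR-345 was closest to miR-652 (0.144), with miR-24 next (0.148).

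Blood cell markers moved between the groups too, and in bulk blood fewer cells of a type and less RNA per cell cannot be told apart. Over all 276 fitted loci, 84 were lower in both cadmium libraries and 109 (39.5%) higher. Of 8 fitted lymphocyte loci, which hold 6 distinct sequences, 7 were lower in both cadmium libraries and 0 higher. Their summed level, each sequence counted once, was 5849 to 7168 CPM in controls and 4241 to 4340 CPM with cadmium, and the most abundant, the 2 copies of miR-181a, had log2 fold changes of -0.81. Of 5 myeloid loci, 3 were higher, the sum being 305 to 344 CPM in controls and 437 to 486 CPM with cadmium. The 3 were miR-23a and the 2 copies of miR-24 (1.10), whose reads are the same. miR-23a was counted over a longer window in cadmium 2 than in the other libraries, with 31.0, 33.5, 43.3 and 119 CPM in control 1, control 2, cadmium 1 and cadmium 2. Without it the sum was 272 to 313 CPM in controls and 367 to 393 CPM with cadmium. miR-27a, the most abundant, stood at 0.09 and miR-146a at -0.20, and both overlapped between the groups. Of 9 erythroid loci, 5 were lower and 3 higher, and the sum was 445614 to 469601 CPM against 353700 to 366123 CPM. The red cell miRNA miR-486 led that list at -0.60, with miR-16-2 at -0.04. The other lower loci were miR-144 (-0.58), miR-22 (-0.10) and miR-16-1 (-0.04), so miR-22 and both copies of miR-16 were only slightly lower. The 3 higher were miR-183 (0.85), miR-363 (0.14) and miR-182 (0.13). The 4 platelet and endothelium loci hold 2 distinct sequences, since miR-199a-1, miR-199a-2 and miR-199b carry the same reads. They overlapped between the groups (191 to 256 against 190 to 212 CPM), with miR-126a and miR-199a-1 both at -0.15. Of 4 fitted liver loci, 2 were lower (4278 to 4983 against 3638 to 3670 CPM), with miR-148a at -0.41 and miR-192 at -0.24. The liver marker miR-122 went the other way but was not fitted, because control 2 does not list it. It had 16 reads in control 1, and 102 and 114 in cadmium 1 and cadmium 2. Over all fitted loci the median was 0.08. With total counts 7 erythroid loci were higher and 2 lower, and the erythroid, platelet and liver medians turned positive (0.26, 0.15 and 0.05), as they did with upper-quartile scaling, and the erythroid one also with totals without dominant loci (0.09), while with total counts 5 lymphocyte loci were lower and 0 higher. miR-451 and miR-223, markers of red and myeloid cells, are not analysed here. The part of cell composition in the levels of the 6 miRNAs was not tested.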

How the data were processed

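Total RNA of whole blood was made into small RNA libraries with Illumina protocols, per the labels' protocols. The deposited lists, 1 per library, give whole-number counts of mature reads per locus, not normalized. Bowtie 0.12.2, DESeq and the mm10 build are named in the submitters' processing notes; what each was used for, and which miRNA annotation was, is not given in the sources used here. The lowest listed count was 5, so absence from a list is not a measured 0. An unnamed total row in cadmium 1 was left out, star names that repeat a locus were merged, and the sequence column of control 2, out of step with its rows, was not used.

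The fit was edgeR 4.0.16 (quasi-likelihood, TMM, filterByExpr, group as the only term, 2 residual degrees of freedom) in R 4.3.3. It covered the 277 annotated loci that every library lists on 1 arm, less 1 filtered out. All 6 miRNAs passed the filter. Standard errors were derived from each log2 fold change and its F statistic. The procedure was tested on simulated data. The pairs of libraries had Pearson correlations of log2 CPM across loci of 0.992 (control) and 0.997 (cadmium). Their chi-square values per degree of freedom were 1023 and 60.8, far above sampling noise in either pair. These values are over all 276 fitted loci and do not describe the 6 miRNAs by themselves.

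The 6 miRNAs, the references and the marker lists (erythroid, lymphocyte, myeloid, platelet and endothelium, liver) were chosen with earlier results of these data known. Other loci named are the references, the 2 nearest profiles of each miRNA, seed mates, and the 2 most abundant loci of each marker list. miR-361 and miR-450a, beside the dividing line, further loci of the marker lists and those in the closing section were named after their values were seen. Alternatives were scaling by total counts, by the upper quartile, by DESeq2 size factors and by totals without loci over 10% of the counts, DESeq2 1.42.0 as the tool, no filter, a minimum mean CPM of 10, a replicate block, each library left out, any arm, and 1 locus per sequence. Raw counts, and the count of the 6 per reference, were added after seeing the data. Tables were made in Python 3.11.15 (pandas 2.3.3, SciPy 1.17.1), and figures with matplotlib 3.10.9.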

Additional observations from a re-analysis of the deposited data

How the results depend on the processing

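In all 6 miRNAs every cadmium library stayed above every control under each scaling, with any library left out, per reference and in raw counts. With a mean CPM of at least 10 miR-664 drops out and 5 of 5 were higher. This outcome was fixed in advance. Their raw counts were already higher, while scaled library sizes and reference reads were lower in both cadmium libraries than in both controls. Leaving out a library could not undo it. Their median log2 fold change, 1.38, was 1.67 with total counts and 1.61 with the upper quartile, where the median of all loci moved from 0.08 to 0.38 and 0.32; relative to all loci it was 1.24 to 1.41 in the 14 alternatives. Leaving out 1 library gave medians of 1.33 to 1.496. Ratios to the references were then 1.36 to 1.57 on the log2 scale (1.42 with all libraries, 1.57 without control 2). In 119 to 138 loci every cadmium library left stood above every control left, a weaker condition than 2 libraries against 2. With all libraries, the 109 loci higher in both cadmium libraries became 87 to 148 with the other scalings. The number was 45 of 129 with a mean CPM of at least 10 (fewer loci) and 17 with raw counts (no correction for depth). Of 83 single values of the 6 miRNAs over these alternatives, 60 moved by less than the spread between replicates, 23 by more and 0 changed sign.

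The libraries share replicate numbers, but nothing in the labels pairs them. With the number as a replicate block the median was 1.38, and deviations of same-numbered libraries had a correlation of 0.0047 across loci. Depth limits miR-664 most, at 110 to 223 reads. With 2 libraries per group the exact two-sided permutation test of a single value cannot reach 0.05.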

Other observations

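The 11 other fitted loci with more raw reads in both cadmium libraries than in both controls hold 9 sequences. miR-18a had 4687 and 5701 reads in controls and 14270 and 15661 with cadmium, and miR-15b had 41944 and 34503 against 48635 and 53133. miR-24, listed at 2 loci with the same reads, had 1976 and 1590 against 2291 and 2468, and miR-652 2528 and 1901 against 3028 and 2675. The rest were named after their values were seen and had few reads. miR-491 had 61 and 52 reads in controls and 109 and 153 with cadmium, miR-500 had 104 and 118 against 218 and 139, and miR-106a, of a paralog cluster of miR-17-92, had 109 and 81 against 124 and 147. miR-1930 had 12 and 15 against 36 and 38, and miR-3084, listed at 2 loci with the same reads, 13 and 18 against 26 and 22.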
